A study of Homo sapiens with 10 samples.

Results

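The sites described here are cytosines in 3' untranslated regions (3' UTRs) that lie 100 to under 400 nucleotides (nt) before the annotated 3' end of the transcript and that carried T in place of C in RNA-seq reads of cells with an APOBEC1 fusion. A site was chosen when it lay in the 3' UTR of the longest protein-coding GENCODE release 29 basic transcript covering it, at a distance of 100 to under 400 nt counted along the spliced transcript. The choice gave 2960 sites in 1204 genes, which was 16.4% of the 18071 APOBEC1 sites and 26.1% of the 11358 sites in 3' UTRs. At 40 of them the transcript base was not C and 1 more was at 30% or above in every library with enough reads, and these 41 were set aside as variant-like. A further 18 sites had no read in at least 1 library. The remaining 2902 sites in 1170 genes were measured in all 5 APOBEC1 libraries, and 99.8% of them lay in the last exon.

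FAM46C, the product of the gene TENT5C, is a non-canonical poly(A) polymerase that adds adenosines to the 3' ends of RNAs. APOBEC1 is a deaminase that turns cytosine into uracil in RNA, which is read as T, and when it is joined to a bait protein the edits it leaves mark RNAs that the bait comes near. The stretch before the poly(A) tail is where a protein acting on the tail meets the body of a messenger RNA.

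Poly(A) RNA was sequenced. All libraries came from HUDEP-2 cells, an immortalised human line of erythroid progenitors, each carrying 1 fusion gene under TRE, a promoter switched on by doxycycline. The 5 APOBEC1 constructs were TRE-GFP-7aa-APOBEC1, the control, and TRE-FAM46C-7aa-APOBEC1, TRE-FAM46C-27aa-APOBEC1, TRE-FAM46C-52aa-APOBEC1 and TRE-FAM46C-74aa-APOBEC1, where aa gives the length of the linker between bait and deaminase in amino acids. They are called below GFP and the 7, 27, 52 and 74 aa fusions. All received doxycycline, for 48 h per the sample labels and for 24 h per the series text. Each construct had 1 library, so no difference below has a replicate check, and a test compares 2 libraries and not 2 conditions. The 7 aa fusion is the only one matched to GFP in linker length; for the others, bait and linker length cannot be told apart. All comparisons share the GFP library.

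The deposited site tables held 627284 to 748955 reads per APOBEC1 library over all sites, and no site had more than 300 to 314 reads in a library. The median depth at the measured sites was 37 reads with GFP and 45, 36, 42 and 43 reads with the 7, 27, 52 and 74 aa fusions. No site entered the tables with fewer than 2 edited reads in its highest library, and 56.5% of the measured sites had exactly 2 in their highest library, so cytosines that were low everywhere are not represented. Of 15 erythroid marker genes 7 had sites somewhere in the gene, HBG1, HBG2, HBB and ALAS2 among them. Of 7 markers of other blood cells 2 had sites, with 32 to 58 reads. Of 4 epithelial and fibroblast markers 1 had sites, EPCAM, an epithelial adhesion protein, with 386 to 637 reads. A list of edited sites is no measure of expression, so a marker without a site is not shown to be absent.

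The following windows show 21 nt of the transcript, 5' to 3', from GENCODE release 29 transcript sequences on GRCh38, with the edited cytosine in capitals. They are sites called higher with the 7 aa fusion, those with the largest differences from GFP among sites with at least 20 reads in every library, followed by sites at which GFP was high. PABPC1 at 276 nt is among the largest and is not printed. The RPN2 site and the CDKN2A site at 365 nt were picked after their values were seen. The PDCD6 site was close to the limit for a variant-like site.
BUD23, 266 nt from the end: gttcagctgaCaaagtagtat
BUD23, 243 nt from the end: tagaaaagttCtaaagttata
BUD23, 222 nt from the end: aaaatgttttCtgcagtaaaa
BUD23, 273 nt from the end: ctatattgttCagctgacaaa
BUD23, 300 nt from the end: tggaaaggcaCttgcctctgc
GNAS, 297 nt from the end: cgtaattgtaCaagcagttaa
HINT1, 279 nt from the end: taataaaagaCattgttgcat
UBB, 101 nt from the end: gatggcattaCtctgcactat
CDKN2A, 390 nt from the end: gcccccgccaCaacccacccc
RPN2, 175 nt from the end: tgtagttataCttttgcttgt
PDCD6, 152 nt from the end: gtctctggttCtatagtgcaa
CDK2AP1, 304 nt from the end: gcacgctttaCttagtagccg
CRYZ, 180 nt from the end: tgatataataCatagtctcca
NDUFAF3, 268 nt from the end: aatgctttcaCtcttatctac
CDKN2A, 365 nt from the end: tcgtagttttCatttagaaaa
On the plus strand of GRCh38 these windows cover, for BUD23 in the order printed, chr7:73697936-73697956, chr7:73697959-73697979, chr7:73697980-73698000, chr7:73697929-73697949 and chr7:73697902-73697922. GNAS is at chr20:58910885-58910905, UBB at chr17:16382629-16382649, RPN2 at chr20:37241438-37241458, PDCD6 at chr5:314812-314832 and NDUFAF3 at chr3:49023217-49023237. On the minus strand, HINT1 is at chr5:131159296-131159316, the CDKN2A sites at chr9:21968133-21968153 and chr9:21968108-21968128, CDK2AP1 at chr12:123261306-123261326 and CRYZ at chr1:74705660-74705680. Each of these sites lies in the 3' UTR part of a last exon.

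In the stretch 100 to under 400 nt from the end, the editing level, which is the percent of reads with T in place of C, was highest with the 7 aa fusion and lowest with the 74 aa fusion. It was 2.82% with GFP (95% Wilson interval 2.73% to 2.91%, 3550 of 126035 reads), 5.32% with the 7 aa fusion (5.21% to 5.44%), 3.83% with 27 aa (3.73% to 3.94%), 3.54% with 52 aa (3.44% to 3.63%) and 1.05% with 74 aa (0.995% to 1.10%). No 2 of these intervals overlapped. Relative to GFP the level was 1.89 times as high with 7 aa (95% interval 1.82 to 1.97), 1.36 times with 27 aa (1.30 to 1.42), 1.26 times with 52 aa (1.20 to 1.31) and 0.371 times with 74 aa (0.350 to 0.394). Over all APOBEC1 sites of the series the odds ratios to GFP were 1.48, 1.05, 1.01 and 0.384, so over all sites the 74 aa library was low and the 7 aa library high. The 27 and 52 aa ratios were not above GFP in every subset of these sites, as the values by distance, by 3' UTR length and within genes below show. Intervals here and below cover counting error only, since each construct had 1 library. The reads carry no molecular identifiers and sites a few nt apart can share reads, so the intervals are narrower than independent reads would give.

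Most single sites were edited at low levels. No edited read was seen at 49.2% of the measured sites with GFP, and at 26.1%, 46.1%, 41.6% and 74.4% with the 7, 27, 52 and 74 aa fusions. Among the 2039 sites that 20 or more reads covered in each of the 5 libraries, 39 reached 10% editing with GFP, 171 with 7 aa, 101 with 27 aa, 96 with 52 aa and 10 with 74 aa. The 90th percentile was 6.25% with GFP, 9.09% with 7 aa and 2.90% with 74 aa. The 4 fusions ordered these sites more like each other than like GFP. Across the 2039 sites, Pearson's r between 2 fusions was 0.53 to 0.61 and Spearman's rho 0.30 to 0.35, whereas GFP against a fusion gave r of 0.26 to 0.37 and rho of 0.028 to 0.17; these sites share the rule that 2 edited reads in any library brought them in, and neighbouring sites share transcripts.

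The level in this stretch stood between those of its neighbours. In the last 99 nt (1433 measured sites) GFP gave 2.21% and the fusions 7.96%, 5.43%, 4.85% and 1.41%; at 400 nt or more (6679 sites) GFP gave 3.71% and the fusions 4.16%, 2.77%, 2.87% and 0.913%. The ratio to GFP was thus lower at 100 to under 400 nt than in the last 99 nt, by a factor of 0.525 with 7 aa (95% interval 0.487 to 0.566), 0.553 with 27 aa, 0.573 with 52 aa and 0.580 with 74 aa (0.521 to 0.646). It was higher than at 400 nt or more, by a factor of 1.69 with 7 aa (1.61 to 1.77), 1.82 with 27 aa (1.73 to 1.92), 1.62 with 52 aa (1.54 to 1.71) and 1.51 with 74 aa (1.40 to 1.63). GFP itself ran the other way and was lowest next to the end.

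**Figure D1:**
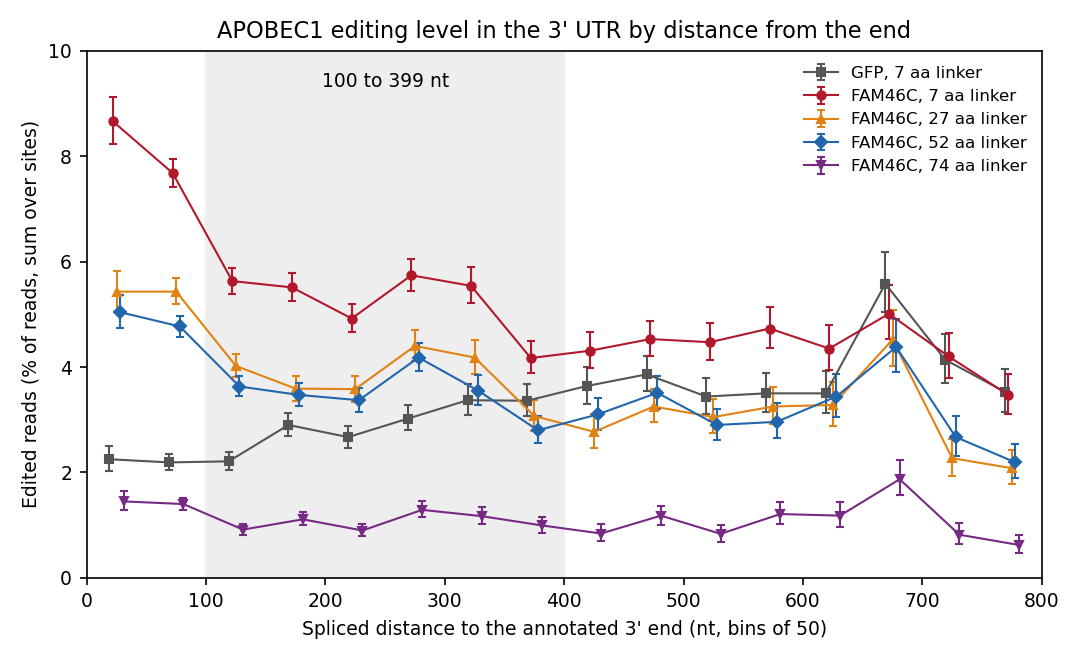
Editing level (percent of reads, y axis) of 3' UTR sites in steps of 50 nt of distance to the annotated end (x axis), for the 5 APOBEC1 libraries with 95% Wilson intervals and 100 to under 400 nt shaded. The 7 aa curve falls with distance and stays above GFP through the shaded stretch, while the 74 aa curve stays below GFP there.

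Pooled over 3' UTRs of all lengths, the ratio to GFP fell with distance inside the stretch as well. With GFP the level was 2.52% at 100 to under 200 nt (1362 sites), 2.84% at 200 to under 300 nt (904 sites) and 3.36% at 300 to under 400 nt (636 sites), and with 7 aa it was 5.57%, 5.30% and 4.87%. The ratio of 7 aa to GFP therefore went from 2.22 to 1.87 to 1.45. The 27 aa ratio went from 1.52 to 1.39 to 1.08, the 52 aa ratio from 1.42 to 1.32 to 0.947, and the 74 aa ratio from 0.398 to 0.381 to 0.323. The first 100 nt over the last gave a factor of 1.53 with 7 aa (95% interval 1.39 to 1.69), 1.40 with 27 aa, 1.49 with 52 aa and 1.23 with 74 aa (1.06 to 1.44). Just outside the near limit, at 90 to 99 nt, the 7 aa ratio was 2.66 over 161 sites, and just inside, at 100 to under 110 nt, it was 3.35 over 176 sites. At 390 to under 400 nt it was 1.43 over 74 sites and at 400 to under 410 nt 1.16 over 60 sites.

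The ratio to GFP was higher in short 3' UTRs than in long ones. In 3' UTRs shorter than 400 nt (849 sites, 341 genes) GFP gave 1.96% and 7 aa 6.27%, a ratio of 3.19 (95% interval 2.95 to 3.45); the ratios with 27, 52 and 74 aa were 2.33, 2.02 and 0.558. At 400 to under 800 nt (945 sites) the 7 aa ratio was 1.80, at 800 to under 1600 nt (665 sites) 1.30, at 1600 to under 3200 nt (356 sites) 1.22 and at 3200 nt or more (87 sites) 0.804 (0.618 to 1.05). With 27 aa the same classes gave 1.32, 0.863, 0.835 and 0.487. The ratio in 3' UTRs under 400 nt exceeded that in 3' UTRs of 1600 nt or more by a factor of 2.79 with 7 aa (2.45 to 3.18), 3.03 with 27 aa (2.62 to 3.51), 2.63 with 52 aa (2.28 to 3.04) and 2.44 with 74 aa (1.98 to 3.01). This comparison was added after the data were seen. When a site counted only if it had 2 edited reads in a library outside the pair compared, the factors were 1.94, 2.07, 1.84 and 1.76, with the lowest interval bound at 1.38.

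Sites at one distance still differed by 3' UTR length. Among sites 100 to under 200 nt from the end alone, the 7 aa ratio was 3.10 in 3' UTRs under 400 nt, 1.91 at 400 to under 800 nt, 1.74 at 800 to under 1600 nt and 1.37 at 1600 nt or more, and at 200 to under 300 nt it was 3.43, 1.77, 1.12 and 1.20. At 300 to under 400 nt it was 2.94, 1.74, 1.02 and 0.800. With distance the 7 aa ratio thus changed little in 3' UTRs under 800 nt and fell in longer ones. GFP differed by length as well, with 1.98% in the shortest class and 3.72% in the longest at 100 to under 200 nt. Within the single class of 400 to under 800 nt, sites at 100 to under 400 nt no longer had a higher ratio than sites farther up the same class: the factor was 0.884 with 7 aa (95% interval 0.793 to 0.986), 0.967 with 27 aa, 0.874 with 52 aa and 0.890 with 74 aa. The same comparison inside 442 genes with sites in both stretches (Mantel-Haenszel odds ratios) gave 1.28 at 100 to under 400 nt and 1.07 farther up with 7 aa, a factor of 1.19 (1.10 to 1.29). With 27 and 52 aa the odds ratios at 100 to under 400 nt were 0.835 (0.775 to 0.899) and 0.860 (0.801 to 0.923), so in these genes the stretch was below GFP, opposite to its pooled ratios of 1.36 and 1.26. Farther up they were 0.723 and 0.759, which made the factor 1.15 (1.05 to 1.26) and 1.13 (1.04 to 1.23). Genes with only 3' UTRs under 400 nt cannot be among these 442. Stratified by site over the whole stretch, the Mantel-Haenszel odds ratios were 1.35 with 27 aa and 1.27 with 52 aa. Inside the 382 genes that also had sites in the last 99 nt, those of the stretch were 1.48 and 1.36. The 52 aa factor was 1.02 (0.928 to 1.13) when sites needed 20 reads in each library. With 74 aa the factor was 1.01 (0.891 to 1.14). The part of 3' UTR length in the difference between the stretches was not tested beyond these values. Against the last 99 nt the difference remained inside 382 genes, where the near sites exceeded the sites described here by a factor of 1.87 with 7 aa (1.68 to 2.09) and 1.51 with 74 aa (1.29 to 1.76).

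**Figure D2:**
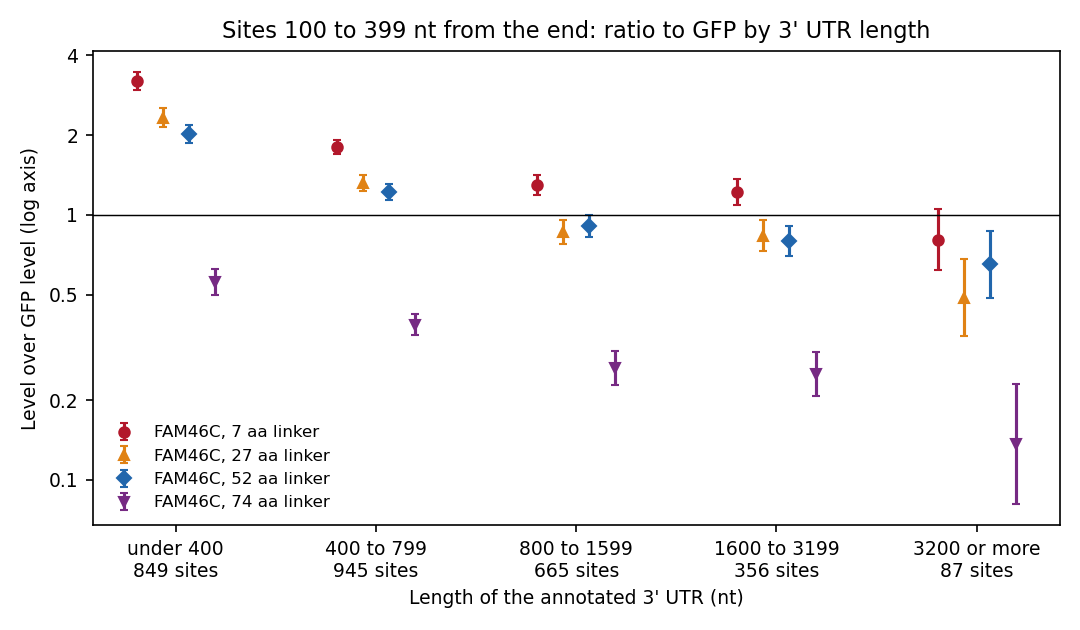
Ratio of the editing level to GFP (y axis, log scale) at sites 100 to under 400 nt from the end in 5 classes of 3' UTR length (x axis), for the 4 FAM46C fusions with 95% intervals. All 4 ratios fall from the shortest to the longest class, for 7 aa from 3.19 to 0.804.

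An annotated end is not always the end in use. Another annotated end of the same gene lay within 100 nt of 362 sites (12.5%, 178 genes), and at these the ratios to GFP were 2.31, 1.78, 1.45 and 0.439 for 7, 27, 52 and 74 aa. The other 2540 sites gave 1.82, 1.29, 1.22 and 0.360. In the transcript sequence, AATAAA or ATTAAA, the letters of the polyadenylation signal, lay within 50 nt downstream of 12.3% of the sites, against 6.69% of every C in the same stretch of the same transcripts, searched on the transcript strand. The 358 sites with such letters had a 7 aa ratio of 2.42 (95% interval 2.14 to 2.74) and the 2544 sites without them 1.83 (1.76 to 1.91). A match of letters does not show that an end is used there.

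The edited cytosines had the neighbours that APOBEC1 is known to prefer, an A or T on each side. The base before the C was A at 77.4% of the measured sites, against 23.1% of the 61492 C bases in the same stretch of 1179 transcripts, and T at 20.2% against 28.6%. C came before at 0.620% against 27.4% and G at 1.72% against 20.9%. The 3 letters ACT made up 39.4% of sites against 8.38% of C bases, and ACA 27.8% against 7.92%. Of every C after an A in these transcripts 15.8% was a site, and of every C after a C 0.107%. The letters ATTTA lay within 20 nt of 10.6% of sites and 6.20% of C bases, and the flanks were 67.5% A and T against 57.5%. Sites with A before (2247) went from 3.04% with GFP to 5.83% with 7 aa, a ratio of 1.92 (95% interval 1.84 to 2.0), and sites with T before (587) from 2.06% to 3.78%, a ratio of 1.84 (1.66 to 2.03). With 74 aa the ratio was 0.358 (0.335 to 0.383) after A and 0.444 (0.384 to 0.513) after T, without overlap. The 7 aa ratio was 0.890 (0.557 to 1.42) at the 50 sites with G before and 0.874 (0.394 to 1.94) at the 18 with C before.

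By gene, many more transcripts were above GFP with the 7 aa fusion than below it, and the balance turned at 74 aa. Edited and unedited reads of a gene's sites in the stretch were summed and compared with GFP by Fisher's exact test (two-sided). P-values were adjusted after Benjamini and Hochberg over 7189 units, each a gene and a region, and adjusted values under 0.05 are referred to as called. With 7 aa, 60 of the 1170 genes were called higher, 5.13% against a background of 2.42% of all units, and 2 were called lower, 0.171% against 0.556%. With 27 aa 21 were higher, 1.79% against 0.918%, and 5 lower, 0.427% against 0.904%. With 52 aa 10 were higher, 0.855% against 0.626%, and 3 lower, 0.256% against 0.515%. With 74 aa 2 were higher, 0.171% against 0.0556%, and 41 lower, 3.50% against 3.19%. The share higher at 7 and 27 aa stood above the background, and the share lower at 74 aa was near it. Sites that entered the tables through a fusion alone add to its higher calls, and those that entered through GFP alone to lower calls. Tested instead against the odds ratio of all APOBEC1 reads in the 2 libraries, 14 genes were higher and 10 lower with 7 aa, and 6 higher and 1 lower with 74 aa.

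The called genes were a small part of a wider difference in level. The median gene differed from GFP by 1.70 percentage points with 7 aa, 0 with 27 aa, 0 with 52 aa and -0.755 with 74 aa. Of 581 genes with at least 50 reads in both GFP and 7 aa, 422 were above GFP with 7 aa and 150 below, 321 and 219 with 27 aa, 319 and 227 with 52 aa, and 88 and 406 with 74 aa. The genes called higher with 7 aa had a median 3' UTR of 416 nt, those called lower with 74 aa 724 nt, and all 1170 genes 648 nt. In gene sums a read that covers several sites counts once at each, so the p-values, and the limits set on a zero, are smaller than independent reads would give.

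**Figure D3:**
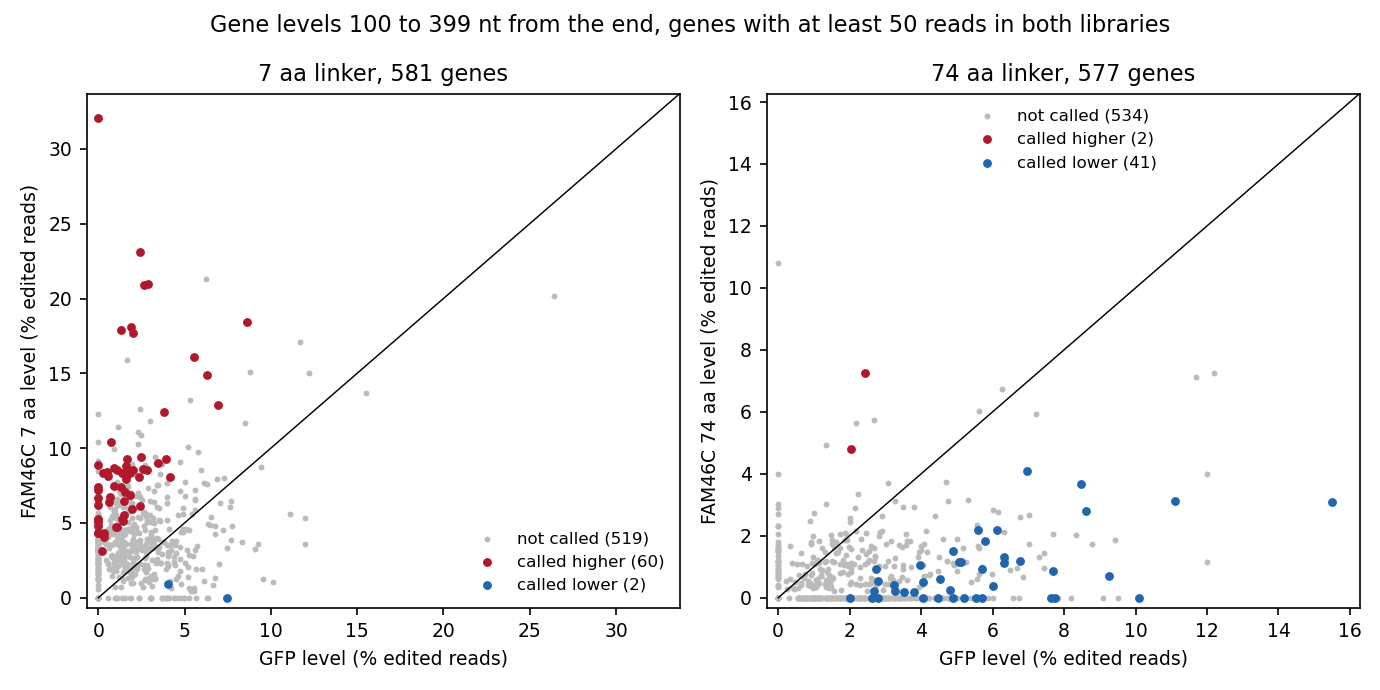
Gene editing level in the fusion (y axis, percent of reads) against GFP (x axis) for the 7 aa fusion (left, 581 genes) and the 74 aa fusion (right, 577 genes), genes with at least 50 reads in both libraries; the line marks equal levels and coloured points are genes called by Fisher's exact test. On the left the 60 genes called higher lie toward low GFP levels, above the line, and on the right the 41 genes called lower lie below the line.

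The largest differences from GFP among genes called higher with 7 aa were in MFGE8, BUD23, HINT1, STOML2, UBB, PABPC1 and GNAS. BUD23 (ENSG00000071462), an 18S ribosomal RNA methyltransferase, had 7 sites 222 to 300 nt from the end of a 3' UTR of 326 nt. Its level was 2.42% with GFP (13 of 538 reads), 23.1% with 7 aa (220 of 952), 18% with 27 aa, 19.1% with 52 aa and 7.27% with 74 aa. All 4 fusions lay above GFP with no overlap of intervals, and Fisher's exact test gave adjusted p = 1.24e-28, 7.42e-18, 4.69e-19 and 0.00296. GNAS (ENSG00000087460), the stimulatory G protein alpha subunit, had 5 sites in a 3' UTR of 363 nt. Its level was 2.03% with GFP (19 of 936 reads), 17.7% with 7 aa (160 of 903), 11.8% with 27 aa, 12.5% with 52 aa and 4.80% with 74 aa, with adjusted p = 1.93e-29, 1.06e-14, 4.87e-16 and 0.0385 by the same exact test. These 2 genes were the ones called higher in all 4 fusions. The 74 aa call of GNAS was lost when sites entered only through other libraries (adjusted p = 0.060, exact test) and in the narrower stretch of 150 to under 350 nt (0.32).

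Both genes had 1 site far above its neighbours. In BUD23 the site 266 nt from the end had 5.33% with GFP (4 of 75 reads), 54.3% with 7 aa (70 of 129), 51.3% with 27 aa, 50% with 52 aa and 23.3% with 74 aa. The neighbouring site at 273 nt, whose window overlaps this one above, had 0 of 75 reads with GFP, allowing up to 4.0%, and 17.8%, 12.1%, 14.6% and 3.76% with the fusions. The 6 other BUD23 sites had 9.42% to 27.4% with 7 aa. Of the 7 sites 5 were called higher with 7 aa on their own (Fisher's exact test, adjusted p from 3.72e-10 to 0.00692), and the remaining 2, at 288 and 283 nt, were at 7.41% and 1.27% with GFP and 14.8% and 9.42% with 7 aa. In GNAS the site at 297 nt had 7.52% with GFP, 38.6% with 7 aa, 30.8% with 27 aa, 29.8% with 52 aa and 11.7% with 74 aa. The 3 GNAS sites nearest the end, at 164, 127 and 105 nt, had no edited read with GFP in 198, 171 and 119 reads and 7.78%, 8.43% and 11.6% with 7 aa.

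**Figure D4:**
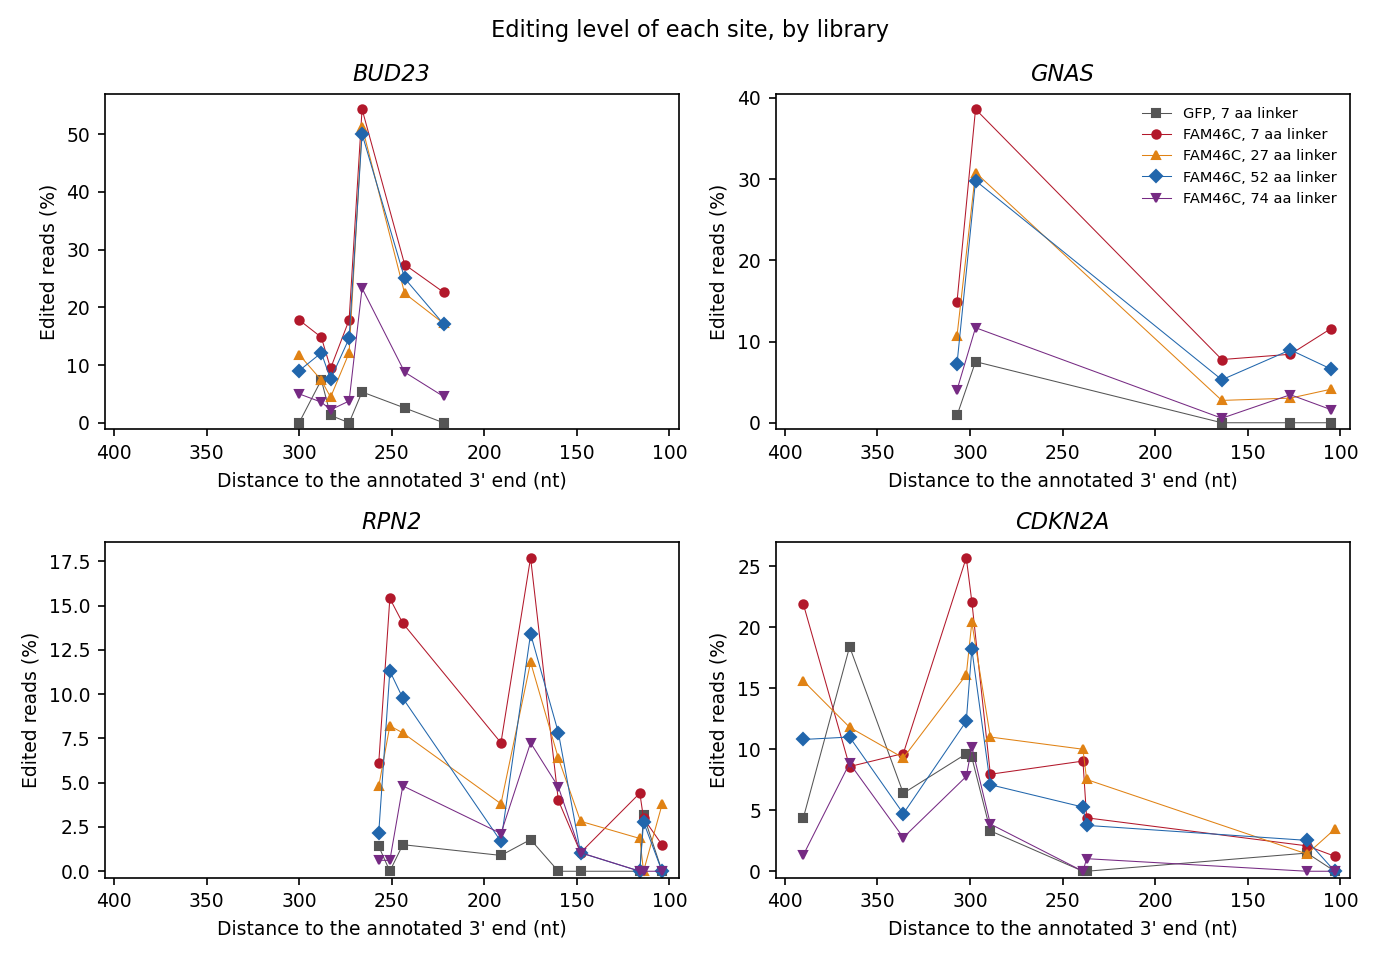
Editing level (y axis, percent of reads) of each site in BUD23, GNAS, RPN2 and CDKN2A by distance to the annotated 3' end (x axis, nt, end to the right), with the sites of a library joined by thin lines. The 4 fusions peak at the same sites of BUD23 (266 nt) and GNAS (297 nt), and in CDKN2A GFP is highest at 365 nt, where the fusions are lower.

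UBB (ENSG00000170315), a polyubiquitin gene, has a 3' UTR of only 143 nt and 2 sites in the stretch. Together they had 1.33% with GFP (5 of 375 reads), 17.9% with 7 aa, 13.6% with 27 aa, 12.8% with 52 aa and 4.92% with 74 aa. The first 3 fusions were above GFP without overlap (Fisher's exact test, adjusted p = 1.45e-13, 1.81e-08 and 2.77e-07) and the fourth was not called (0.120). PABPC1 (ENSG00000070756), the cytoplasmic protein that coats poly(A) tails, had 2 sites, at 276 and 317 nt. It went from 1.87% with GFP to 18.1%, 12.3% and 10.5% with 7, 27 and 52 aa (adjusted p = 1.14e-15, 5.92e-08 and 8.28e-06, exact test) and was at 2.08% with 74 aa, next to GFP. Both sites were called with 7 aa on their own. UBB has 5 and PABPC1 13 annotated pseudogenes by name, so reads assigned to them are uncertain.

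HINT1 (ENSG00000169567), a nucleotide phosphoramidase, had 2 sites with 2.67% with GFP (6 of 225 reads), 20.9% with 7 aa, 14% with 27 aa, 13.9% with 52 aa and 5.73% with 74 aa. It was called with 7, 27 and 52 aa (adjusted p = 4.66e-07, 0.00392 and 0.00207, Fisher's exact test). MFGE8 (ENSG00000140545), a secreted glycoprotein that binds phosphatidylserine, had the largest difference but few reads. Summed over its 5 sites, none of 52 counts was edited with GFP, which allows up to 5.77% only if each count is a separate read. The fusions had 32.1% of 81 with 7 aa, 20.5% of 88 with 27 aa, 16.0% of 106 with 52 aa and 10.8% of 111 with 74 aa. It was called with 7 aa (adjusted p = 8.39e-05, exact test) and 27 aa (0.0135). Of its 5 sites 4 lie between 308 and 315 nt and share reads. The highest, at 315 nt, had 9 of 14 reads edited with 7 aa and 0 of 11 with GFP, which allows up to 27.3%. That site was not called on its own (adjusted p = 0.179, Fisher's exact test). STOML2, a stomatin-like protein of the mitochondrial inner membrane, had 1 site with 2.90%, 21%, 13.8%, 19.5% and 2.15% in the order GFP, 7, 27, 52 and 74 aa, and was called with 7 aa alone (adjusted p = 0.0346, exact test).

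Smaller rises with 7 aa were called in HMGB2, PTMA, ADD1, SRM and SSB. HMGB2, a chromatin protein, had 5.56% with GFP and 16.1% with 7 aa, and SSB, the La protein that binds new RNA polymerase III transcripts, 3.81% and 12.4%. The SSB sites also lie in a second coding gene. ADD1, the alpha adducin of the membrane skeleton, had 1 of 138 reads edited with GFP (0.725%) and 10.4% with 7 aa. SRM, spermidine synthase, had 0 of 116 reads with GFP, which allows up to 2.59%, and 8.89% with 7 aa. The adjusted p-values for these 4 genes with 7 aa were 0.0370, 0.00217, 0.0239 and 0.0161 in that order (Fisher's exact test), and none was called with another fusion. The ADD1 call was lost when sites entered only through other libraries (adjusted p = 0.83, exact test), and those of SSB and HMGN3 at 150 to under 350 nt (0.11 and 0.77). Against the odds ratio of all reads these 4 calls, with those of STOML2, PTMA, CDKN2A and HMGN3, were lost (adjusted p between 0.12 and 0.74, exact test). Those of BUD23, GNAS, UBB, PABPC1, HINT1, MFGE8 and RPN2 remained.

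RPN2, CDKN2A, HMGN3 and H3F3A had the most reads in the stretch. RPN2 (ENSG00000118705), a subunit of the oligosaccharyltransferase of the endoplasmic reticulum, had 10 sites with 0.896% with GFP (9 of 1005 reads), 8.68% with 7 aa, 5.84% with 27 aa, 5.66% with 52 aa and 2.48% with 74 aa. It was called with 7, 27 and 52 aa (adjusted p = 9.54e-16, 2.22e-07 and 3.97e-07, Fisher's exact test). Its site at 175 nt went from 1.79% with GFP to 17.7% with 7 aa, while the 4 sites closest to the end, 104 to 148 nt away, were at 1.05% to 4.41% with 7 aa and none was called. HMGN3, a nucleosome-binding protein, had 11 sites with 4.15% with GFP and 8.06% with 7 aa (adjusted p = 0.0162, exact test). H3F3A, which encodes histone H3.3, had 15 sites, as many as MPV17 and PDHB and more than any other gene, with small differences: 2.73% with GFP, 2.08%, 1.99% and 1.91% with 7, 27 and 52 aa, and 0.915% with 74 aa, the last called lower (adjusted p = 4.13e-05, exact test).

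CDKN2A (ENSG00000147889), which encodes the cell cycle inhibitor p16, had 10 sites that did not move together. In sum they had 6.96% with GFP (104 of 1494 reads), 12.9% with 7 aa, 12.3% with 27 aa, 8.86% with 52 aa and 4.08% with 74 aa. It was called higher with 7 aa (adjusted p = 4.44e-06, exact test) and 27 aa (0.000135) and lower with 74 aa (0.0127). The site at 390 nt went from 4.37% with GFP to 21.9% with 7 aa, and the site at 365 nt from 18.4% with GFP to 8.58%. Only the first of these was called (adjusted p = 2e-05, exact test, against 0.350). When distance was counted to the nearest annotated end, none of the CDKN2A calls held: the difference at 7, 27 and 74 aa was 2.55, 4.55 and 0.0983 percentage points (adjusted p = 0.39, 0.085 and 1.0, exact test). PTMA, which encodes prothymosin alpha, behaved alike in sum, with 8.62% with GFP, 18.4% with 7 aa (adjusted p = 2.97e-05, exact test), 12.9% with 27 aa, 12.3% with 52 aa and 2.81% with 74 aa (0.000332, lower), and has 7 pseudogenes by name.

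A smaller set of genes was above the fusions with GFP, and 7 were called lower in at least 2 fusions. LEPR (ENSG00000116678), the leptin receptor, had 11 sites with 9.27% with GFP (23 of 248 reads), 3.57% with 7 aa, 0.654% with 27 aa, 2.83% with 52 aa and 0.718% with 74 aa. It was called lower with 27 aa (adjusted p = 0.000180, Fisher's exact test) and 74 aa (9.33e-06). U2AF2 (ENSG00000063244), a splicing factor that recognises the 3' splice site, had 11.1% with GFP (37 of 333 reads), 5.59%, 3.75%, 4.46% and 3.12% in linker order, and was called lower with 27 aa (adjusted p = 0.0255, exact test) and 74 aa (0.00388). All 4 fusions were below GFP in both genes, though the 7 and 52 aa differences did not pass.

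CCNI (ENSG00000118816), cyclin I, had 9 sites with 4.04% with GFP (23 of 570 reads), 0.891% with 7 aa, 1.12% with 27 aa, 1.78% with 52 aa and 0 of 712 reads with 74 aa, which allows up to 0.421%. It was called lower with 7, 27 and 74 aa (adjusted p = 0.00763, 0.0462 and 1.59e-06, Fisher's exact test). MPC1, a subunit of the mitochondrial pyruvate carrier, had 6.02% with GFP and 1.91%, 2.2%, 0 of 207 reads (up to 1.45%) and 0.395% with the fusions. SET, a histone chaperone, had 5.53% and then 0.461%, 2.44%, 0 of 248 reads (up to 1.21%) and 0 of 181 (up to 1.66%), with 19 pseudogenes by name. ANP32E, a chaperone of histone H2A.Z, had 5.69% and 1.92%, 1.57%, 0.909% and 0 of 242 reads (up to 1.24%). ABCB10, a mitochondrial transporter used by erythroid cells in heme synthesis, had 4.53% and 1.28%, 0 of 253 reads (up to 1.19%), 1.14% and 0.615%. MPC1, SET and ANP32E were called lower with 52 and 74 aa and ABCB10 with 27 and 74 aa.

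Several lower calls changed with how sites entered the tables. A site that enters through GFP alone can only be lower elsewhere. Likewise, a site that enters through a fusion alone can only be higher there than with GFP, so higher calls carry the same limit. When 2 edited reads were required in a library other than GFP and the fusion compared, the calls of MPC1, SET, ANP32E and ABCB10 and the 7 and 27 aa calls of CCNI were lost (adjusted p from 0.64 to 1.0, Fisher's exact test). Those of LEPR (0.038 with 27 aa, 0.0048 with 74 aa), U2AF2 (0.030 and 0.0062) and CCNI with 74 aa (0.013) held. In total 23 genes in place of 41 were then lower with 74 aa, and 0 in place of 2 with 7 aa. Against the odds ratio of all reads, the 74 aa calls of LEPR, U2AF2, MPC1, SET, ANP32E, ABCB10, H3F3A, PTMA and CDKN2A were lost (adjusted p from 0.20 to 1.0, exact test), and that of CCNI held (0.040). At 150 to under 350 nt, where some of their sites drop out, the calls of U2AF2, MPC1, SET, ANP32E and ABCB10, the 27 aa call of LEPR and the 7 and 27 aa calls of CCNI were lost (adjusted p from 0.059 to 1.0, exact test).

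At single sites the test had less to work with. With 7 aa, 24 of 2902 sites were called higher, 0.827% against a background of 0.409% of the 16395 sites tested. With 27 aa 9 were called, 0.310% against 0.122%, with 52 aa 8, 0.276% against 0.0915%, and with 74 aa 0, against 0.00610%. The 24 sites were in 10 genes, 5 each in BUD23 and GNAS, 3 in RPN2, 2 each in CDKN2A, HINT1, PABPC1 and UBB, and 1 each in LSM2, NDUFC1 and PPA1. No site was called lower in any fusion by Fisher's exact test with adjustment, against a background of 0.0122%, 0.00610%, 0.0122% and 0.0549%, and 17, 23, 20 and 76 sites were lower at an unadjusted p under 0.05. At 74 aa 5 sites were higher at that unadjusted p.

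Some sites were high with GFP as well. The highest was in PDCD6, a calcium-binding protein, 152 nt from the end, with 49.2% with GFP (30 of 61 reads), 55.9% with 7 aa, 27.5% with 27 aa, 49.2% with 52 aa and 32.2% with 74 aa. Only the 27 aa library, with 14 of 51 reads, kept this site from being set aside as variant-like at 30% or above. Whether it is a variant in the DNA was not tested. The site in CDK2AP1, a regulator of CDK2, had 27.5% with GFP, 6.78% with 7 aa, 25% with 27 aa, 15.1% with 52 aa and 4.84% with 74 aa. The CRYZ site had 25%, 7.69%, 8.33%, 16.1% and 7.41% in that order, and the NDUFAF3 site 24.1%, 11.8%, 29.6%, 23.7% and 8.33%. None of the 4 was called, at 24 to 62 reads a library.

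Genes of the endoplasmic reticulum had the most calls among 15 lists of genes, which were chosen with earlier results of these data known and support no direction. Of 17 genes of protein translocation, glycosylation and folding with sites in the stretch, 4 were called higher with 7 aa, where 5.13% of all 1170 genes were, and the median difference of the 17 from GFP was 4.29 percentage points against 1.70 for all genes. They were RPN2, RPN1, SEC11A and SRP14. RPN1, another oligosaccharyltransferase subunit, had 2.85% with GFP, 8.55% with 7 aa, 8.10% with 27 aa, 6.15% with 52 aa and 2.12% with 74 aa. SEC11A, the catalytic subunit of signal peptidase, had 3.91% with GFP and 9.26% with 7 aa, and SRP14, of the signal recognition particle, 2.04% and 8.51%. The adjusted p-values with 7 aa were 0.0120, 0.0114 and 0.000760 (Fisher's exact test). OSTC, also of the oligosaccharyltransferase, was called lower with 74 aa, with 2.80% with GFP and 0 of 404 reads, which allows up to 0.743% (adjusted p = 0.0205, exact test). With 7 aa it was at 2.16% and not called. RPN1, SEC11A and SRP14 were below GFP with 74 aa as well, at 2.12%, 1.30% and 1.57%, without a call, while RPN2 was above it, at 2.48%.

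Of 20 lysosomal genes, 3 were called higher with 7 aa, where 5.13% of all 1170 genes were, at a median difference of 2.95 percentage points against 1.70 for all. The same share and median stand behind the lists that follow. They were the protease inhibitor CST3, with 0.912% with GFP and 7.45% with 7 aa, and the cathepsins CTSC, with 1.94% and 5.90%, and CTSZ, with 0 of 221 reads, which allows up to 1.36%, and 5.07%. The adjusted p-values were 0.00149, 0.0235 and 0.0129 by Fisher's exact test. CTSL, another cathepsin, was called with 27 aa instead, at 6.47% against 1.14% with GFP (0.0449). Of 16 respiratory chain genes 2 were called with 7 aa, both of complex I: NDUFC1 went from 1.10% to 8.56% (adjusted p = 4.88e-05, exact test) and NDUFA7 from 2.61% to 8.58% (0.0394). PABPC1 was the 1 gene called of 9 concerned with the poly(A) tail, UBB of 13 of the proteasome and ubiquitin, and COPA, a coat protein of Golgi vesicles, of 13 Golgi genes, with 1.67% with GFP and 9.27% with 7 aa. In the poly(A) tail list the median difference was 4.69 percentage points, and PAIP2, an inhibitor of PABPC1, had 1.30% with GFP and 7.17% with 7 aa without passing (adjusted p = 0.210, exact test).

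Red cell genes were few among these sites and did not share a direction. Of 9 globin and membrane genes, ADD1 was called higher with 7 aa and DMTN, the actin-bundling protein dematin, lower, with 7.43% with GFP and 0 of 152 reads, which allows up to 1.97% (adjusted p = 0.0165, Fisher's exact test). The median difference of the 9 with 7 aa was 0.0599 percentage points. Of 9 heme and iron genes ABCB10 was the 1 called, lower with 27 and 74 aa, and the median with 7 aa was -0.613. The calls of ADD1, DMTN and ABCB10 were all lost when sites entered only through libraries other than GFP and the fusion compared. The 2 genes with sites in the list drawn up for erythroid transcription factors, MYB and MAX, had 1 site each and no call, with 4.55% and 3.23% with GFP. With 7 aa they had 0 of 102 reads, which allows up to 2.94%, and 0 of 48 reads, which allows up to 6.25%.

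The lists tied to translation are too small to be read against the 5.13% of all genes called higher with 7 aa. None of 6 cytoplasmic ribosomal protein genes, 9 translation factor genes or 5 genes of mitochondrial import was called in any fusion, with median differences of 0.773, 0.925 and 0 percentage points with 7 aa. Of 12 mitochondrial ribosomal protein genes MRPL32 was called, with 52 aa, at 4.28% against 0 of 232 reads with GFP, which allows up to 1.29% (adjusted p = 0.0496, Fisher's exact test). Of 20 splicing factor genes only U2AF2 was called, and their median difference with 7 aa was 2.21. Of 13 replication and cell cycle genes CDKN2A was called higher with 7 aa and CCNI lower, and with 74 aa CDKN2A, CCNI and CDK2AP1 were lower.

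Other calls, picked here after their values were seen, included the largest fall by 74 aa and the marker of another cell type. CA2, carbonic anhydrase 2, had 15.5% with GFP, 13.7%, 7.88% and 6.11% with 7, 27 and 52 aa, and 3.10% with 74 aa (adjusted p = 9.39e-06, Fisher's exact test). AP3S1, of an adaptor complex for vesicles, had 14 sites with 4.82% with GFP and 0.245% with 74 aa (adjusted p = 4.18e-07, exact test). Against the odds ratio of all reads, neither the CA2 nor the AP3S1 call held. LSM2, of an RNA-binding ring, had 1 of 388 reads with GFP and 8.31% with 7 aa (adjusted p = 7.43e-07, exact test). EPCAM had 3 sites with 2.45% with GFP, 9.44% with 7 aa, 5.97% with 27 aa, 5.51% with 52 aa and 1.40% with 74 aa, called with 7 aa (0.0115).

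The authors' deposited tables, which list sites of each fusion against GFP with a p-value, held 163 of these sites in 107 genes for 7 aa, 87 in 61 genes for 27 aa, 64 in 44 genes for 52 aa and 10 in 7 genes for 74 aa. That was 31.6% of the 516 sites the authors' deposited table listed for 7 aa, 34.1% of 255 for 27 aa, 30.9% of 207 for 52 aa and 33.3% of 30 for 74 aa. The stretch held 16.4% of all APOBEC1 sites. For 7 aa, 5.51% of its sites were listed against 2.34% of the other APOBEC1 sites. The shares were 2.94% against 1.11% for 27 aa, 2.16% against 0.946% for 52 aa and 0.338% against 0.132% for 74 aa. All 24 sites called higher here with 7 aa were in the authors' deposited table. That table compares the same libraries, so the overlap is no independent support.

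The other deaminase of the study reached the same stretch at different bases. ADARcd, the catalytic domain of ADAR, turns adenosine into inosine, read as G, and its 5 libraries (TRE-GFP-7aa-ADARcd and TRE-FAM46C with 7, 27, 47 and 74 aa linkers) had 381 sites 100 to under 400 nt from the end, 315 of them measured in 246 genes. The levels were 4.97% with GFP, 2.04% with 7 aa, 7.0% with 27 aa, 5.6% with 47 aa and 7.64% with 74 aa, so that here the 7 aa fusion was the lowest. Ratios to GFP were 0.410, 1.41, 1.13 and 1.54, and by 3' UTR length they were 0.453, 1.96, 1.66 and 2.13 under 400 nt (76 sites) and 0.267, 0.794, 0.546 and 0.835 at 1600 nt or more (69 sites). Both enzymes had sites in 61 genes and none at the same position. In 6 of these genes, those called higher with the 7 aa APOBEC1 fusion, 8 ADARcd sites had 0.773% with GFP, 1.65% with 7 aa, 10.8% with 27 aa, 7.33% with 47 aa and 6.79% with 74 aa. The 67 ADARcd sites of the other 55 genes had 3.50%, 1.54%, 5.92%, 4.38% and 5.75%. HINT1 held 2 of the 8 sites and most of their edited reads, 54 of 72 with 27 aa, 31 of 41 with 47 aa and 24 of 36 with 74 aa. Without HINT1, a comparison added after the values were seen, the other 6 sites had 0.681% with GFP, 0.932% with 7 aa, 4.50% with 27 aa, 2.97% with 47 aa and 3.87% with 74 aa, and with 27, 47 and 74 aa their Wilson intervals overlapped those of the other 55 genes.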

How the data were processed

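Trizol was used to extract RNA, per the labels' protocols. GRCh38, Picard 2.27.1, SAMtools 1.18 and HISAT2 2.2.1 stand in the submitters' processing notes without role or order; the choice of sites is not given in the sources used. The authors deposited, per library, whole-number counts of reads with the reference and with the edited base at each site, not normalised, and per fusion a table of listed sites with a p-value. Another 48 columns of per-sample values in those tables were not used. Strand is not stated in the labels, and overlapping genes cannot be told apart; 67 sites (2.26%) lay in more than 1 coding gene.

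Sites were placed with GENCODE release 29 basic transcripts; preferring a transcript that holds C would give 2999 sites, 2953 of them shared. A variant-like site had another base than C, or at least 3 libraries with at least 5 reads, all at 30% or above. Levels are edited over all reads, with 95% Wilson intervals, log-scale intervals of ratios, and 3 counts as the limit of a zero. Fisher's exact tests with Benjamini-Hochberg adjustment and Mantel-Haenszel odds ratios used Python 3.11.15, SciPy 1.17.1, pandas 2.3.3 and NumPy 2.4.6 and were tested on simulated data; plots used matplotlib 3.10.9.

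Named genes were the 12 with the largest difference at 7 aa among those called higher with at least 50 reads, those higher in all 4 fusions, up to 8 lower in at least 2 fusions, and the 4 with most reads. Named sites were the 10 largest rises at 7 aa and the 4 highest GFP levels with at least 20 reads throughout; in each of 15 lists, members called or with most reads were named. The stretch, genes and lists were chosen with earlier results of these data known. Alternatives changed the depth, entry, variant, distance and null settings.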

Additional observations from a re-analysis of the deposited data

Results flagged for a closer look

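In 3 genes the effect of one fusion was opposite to that of another, each called against the same GFP library, and the 2 fusions were also compared directly by Fisher's exact test, with p-values adjusted after Benjamini and Hochberg. Because these genes were picked for opposite calls, the direct comparison restates that choice and is no independent support. CDKN2A had 6.96% with GFP, 12.9% with 7 aa and 4.08% with 74 aa, and the 2 fusions differed at adjusted p = 3.5e-19 (exact test). Its 27 aa level, 12.3%, differed from 74 aa at adjusted p = 1.3e-15 (exact test). PTMA had 8.62% with GFP, 18.4% with 7 aa and 2.81% with 74 aa (adjusted p = 3.7e-19, exact test). OAZ1, which encodes the antizyme of ornithine decarboxylase, had 6.31% with GFP, 14.9% with 7 aa and 1.31% with 74 aa (adjusted p = 1.7e-13, exact test). Over all APOBEC1 sites the 74 aa library was low, with an odds ratio to GFP of 0.384, and the 7 aa library high, with 1.48. Tested against these odds ratios, the 7 and 74 aa calls of CDKN2A and PTMA were lost. With 74 aa only CCNI stayed lower in that test, so the 74 aa call of OAZ1 was lost too. The part of these library-wide levels in the 3 genes was not tested further.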

How the results depend on the processing

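No paired analysis was possible because each construct had 1 library and the labels carry no replicate numbers. The ratios of the stretch to GFP kept their direction under the alternatives tried for the whole stretch, though not in each subset by distance, 3' UTR length or gene, and ran from 1.66 to 2.19 with 7 aa, 1.14 to 1.61 with 27 aa, 1.11 to 1.46 with 52 aa and 0.327 to 0.457 with 74 aa; with each gene weighted equally, the median difference was 0 with 27 aa and 0 with 52 aa.

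The factor within genes between this stretch and the sites farther up was the least stable value. With 74 aa it was 0.991 at 20 reads or more per library, 0.928 at 150 to under 350 nt, 0.929 with entry through other libraries, 0.900 with at least 3 edited reads, 0.926 with variant-like sites kept and 1.13 by nearest annotated end. With 52 aa it lost its call at 20 reads (1.02), at 150 to under 350 nt (1.07), with entry through other libraries (1.06) and with 3 edited reads (1.02); with 27 aa at 150 to under 350 nt (1.10); with 7 aa with entry through other libraries (1.09). The cause was not tested.

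Counts of genes called lower moved. With 20 reads they were 8 with 27 aa and 5 with 52 aa; with 3 edited reads 6 with 52 aa; by nearest annotated end 4 with 7 aa, 12 with 27 aa and 7 with 52 aa. With entry through other libraries, which leaves fewer sites, they were 0 with 7 aa, 3 with 27 aa, 0 with 52 aa and 23 with 74 aa, and 1 gene was higher with 74 aa. At 150 to under 350 nt, also fewer sites, higher calls were 32 with 7 aa, 11 with 27 aa and 1 with 74 aa, and lower calls 0 with 7 aa, 1 with 27 aa, 1 with 52 aa and 23 with 74 aa. Against the odds ratio of all reads 14 genes were higher and 10 lower with 7 aa, and 6 higher and 1 lower with 74 aa; 11 sites were higher and 1 lower with 7 aa, and 3 higher with 74 aa. Sites called lower with 74 aa numbered 2 at 20 reads, 3 by nearest end, 2 with entry through other libraries, 3 with 3 edited reads and 2 in 1 coding gene only, and by nearest end 1 with 52 aa. CDKN2A with 74 aa turned to 0.0983 percentage points by nearest end and, at -2.89 points, lay above the odds ratio of all reads. Of 425 further values of the 49 named calls 375 kept direction and call and 48 lost the call. Restriction to 1 coding gene, Mantel-Haenszel odds ratios over sites and the comparison by 3' UTR length were chosen after seeing the data.

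At a median of 36 to 45 reads a site, most single-site differences could not be shown.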
